A study of Mus musculus with 11 samples.

Results

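The genes described are Hcn2, Hcn3 and Hcn4, which encode pore-forming subunits of hyperpolarization-activated cyclic nucleotide-gated (HCN) channels, and Pex5l, which encodes the HCN accessory protein TRIP8b. They were chosen by symbol as a gene family with its best known neuronal regulator, and make up 4 of the 53465 genes in the count files. The RNA came from GFP+ cells sorted by fluorescence from the medial prefrontal cortex (mPFC) of single adult male CRF1:GFP mice, a reporter line in which GFP marks cells that express the corticotropin releasing factor receptor CRF1. Withdrawn mice (n = 5) had received ethanol vapor in intermittent cycles for weeks, along with ethanol injections and pyrazole, an inhibitor of alcohol dehydrogenase, and were then days into forced abstinence, and naïve mice (n = 6) had received pyrazole and air. Values written as mean ± SD are over the 6 naïve mice and then the 5 withdrawn mice. Both groups carried the same reporter, which follows the activity of the Crhr1 promoter, and each library held the sorted cells of 1 mouse. Other genes of the HCN family were not analysed here.

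HCN channels open when the membrane hyperpolarizes and pass a mixed sodium and potassium current called Ih. This current sets the resting potential, limits dendritic summation of synaptic input and, in many neurons, helps to pace firing. Subunits assemble as tetramers, cyclic AMP (cAMP) binds a domain in their C terminus and shifts gating, the membrane lipid PIP2 also shifts it, and TRIP8b steers the channels to or from the surface and dendrites of cortical pyramidal cells. HCN3 is known to respond little to cAMP, whereas HCN2 and HCN4 respond strongly.

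The coding sequences below show what the 3 subunits share and where they differ at the positions that bear on these roles. They were read from the reference transcripts of GENCODE M21 on GRCm38, 5′ to 3′, with 1 transcript per gene. In the first set, capitals mark the codons of glycine, tyrosine and glycine, the selectivity filter signature of the pore, which each encoded protein held 1 time.
Hcn2 pore: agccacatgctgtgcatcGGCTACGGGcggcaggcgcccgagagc
Hcn3 pore: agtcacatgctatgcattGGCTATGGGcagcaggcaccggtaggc
Hcn4 pore: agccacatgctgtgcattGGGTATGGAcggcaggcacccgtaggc

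The filter lay at residues 402 to 404 of the 863 residues of HCN2, at 312 to 314 of the 779 of HCN3 and at 480 to 482 of the 1201 of HCN4. In the second set, which ends with the stop codon, capitals mark the last 3 residues. TRIP8b binds HCN channels partly through a C-terminal serine, asparagine and leucine.
Hcn2 end: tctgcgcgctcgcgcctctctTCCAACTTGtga
Hcn3 end: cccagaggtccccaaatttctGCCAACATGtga
Hcn4 end: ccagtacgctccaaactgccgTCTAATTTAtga

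Hcn2 and Hcn4 ended in codons for serine, asparagine and leucine, whereas Hcn3 ended in codons for alanine, asparagine and methionine. Hcn3, which had the highest level of these 3 subunit genes, was the one without that ending.

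On GRCm38, Hcn2 (ENSMUSG00000020331) lies on chromosome 10 from 79716634 to 79736108 on the plus strand, with 8 exon blocks that cover 3195 bases. Hcn3 (ENSMUSG00000028051) lies on chromosome 3 from 89146074 to 89160196 on the minus strand, with 8 exon blocks and 4154 exonic bases. Hcn4 (ENSMUSG00000032338) lies on chromosome 9 from 58823412 to 58863175 on the plus strand, with 8 exon blocks and 6118 exonic bases. Pex5l (ENSMUSG00000027674) lies on chromosome 3 from 32949408 to 33143247 on the minus strand, and its 12 annotated transcripts have 17 exon blocks and 8846 exonic bases.

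Exons of Hcn2 and Hcn4 are shared with no other annotated gene. Of the exonic bases of Hcn3, 711 (17.1%) overlap Pklr on the opposite strand, which had between 0 and 2 counts in each mouse. Of those of Pex5l, 340 (3.84%) overlap the antisense gene Gm37459, which had between 20 and 94 counts, and 24 (0.271%) overlap 4930419G24Rik, with between 4 and 43 counts. The strand setting of the counting was not given in the sources used here, so Hcn3 and Pex5l counts over those bases are uncertain.

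Gene counts ranged from 7351567 to 22244869 per mouse, so that 3 counts, taken as the floor, correspond to between 0.135 and 0.408 CPM (counts relative to library size) when scaled to the gene total. All expression values are CPM scaled to the effective library size after TMM normalization. This floor covers counting error only, since the cDNA was amplified from 160 pg of RNA per mouse. The share of reads outside annotated exons ran from 5.77% to 31.5% in naïve mice and from 13.3% to 48.1% in withdrawn mice, and the number of genes detected from 15585 in naïve mouse 5 to 31830 in withdrawn mouse 4. For 3 of the withdrawn mice (3, 4 and 5) a further label says control, and the deposit's own design line swaps the group sizes. The edgeR fold changes were therefore also fitted without these mice. The permutation tests and the subunit shares were not repeated in this way. Crhr1, the gene of the sorted receptor, had 92.7 ± 21.5 CPM in naïve and 89.3 ± 33.6 CPM in withdrawn mice, and the difference was within the spread between mice (p = 0.723, exact permutation test, two-sided). Summed markers of glutamatergic neurons were between 1340 and 3116 CPM over all mice, against 21.0 to 469 CPM for GABAergic neurons as a class and 111 to 1003 CPM for markers of interneuron subclasses. Markers of other cells summed to 109 to 272 CPM for oligodendrocytes, 0 to 26.7 CPM for their precursors, 60.9 to 442 CPM for astrocytes, 3.18 to 607 CPM for endothelial cells and 0.135 to 164 CPM for mural cells. Microglial markers summed to 0 to 7.22 CPM in naïve and 6.87 to 17.5 CPM in withdrawn mice. Fibroblast markers summed to 0.0677 to 60.7 CPM and 17.8 to 1284 CPM (p = 0.013 for each sum, exact permutation test, two-sided). Of the 6 microglial markers only 3 were tested, 1 with a positive and 2 with a negative log2 fold change. Each of the 6 had no counts in at least 4 mice, and Tmem119 reached the highest level, 14.4 CPM. The part of these cells in the members' values was not tested.

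All 4 genes passed the filter on low counts that left 17093 genes for testing. Hcn3 and Pex5l had the most RNA in the sorted mPFC GFP+ cells, Hcn2 somewhat less, and Hcn4 little. On a scale that allows levels to be compared between genes, CPM per kilobase of exon, the means over the 11 mice were 10.0 for Hcn3, 7.24 for Pex5l, 6.38 for Hcn2 and 0.864 for Hcn4. Among all tested genes these levels stood at percentiles 70.6, 63.5, 60.5 and 19.3.

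The step from Hcn2 down to Hcn4 was found in every mouse, while the order of the upper 3 genes was less sharp. Hcn2 was above Hcn4 per kilobase in 11 of 11 mice, by 2.68 to 19.8 times in the 10 mice with counts for Hcn4. Hcn3 was above Pex5l in 10 of 11 mice, with a ratio of levels per kilobase from 0.596 to 2.35 and a median of 1.36. Pex5l was above Hcn2 in 8 of 11 mice, with a ratio from 0.549 to 1.80 and a median of 1.31, so these neighbours overlapped within the spread between mice. With the exonic bases shared with other genes left out of the lengths, levels were 12.1 CPM per kilobase for Hcn3 and 7.56 for Pex5l. All counts were kept, so both levels could only rise. Both genes already had the highest levels, so this setting cannot test the order.

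No member differed between withdrawn and naïve mice beyond the spread between mice. A gene was called where edgeR's quasi-likelihood test gave a Benjamini-Hochberg adjusted p no higher than 0.05 with a log2 fold change past 0.6 up or down. Of the 4 members 0 were called, where 1 gene (0.00585% of those tested) was called over the whole table. At an unadjusted p under 0.05 in that test the members' count was 0 of 4 against 7.22% of all tested genes, and 0 of 4 had groups that did not overlap, against 0.948%. DESeq2's Wald test also called 0 of 4, against 1.66% of the genes it tested. The median log2 fold change over all tested genes was 0.021. In sorted bulk cells, fewer cells of a type and less RNA per cell cannot be told apart.

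**Figure D1:**
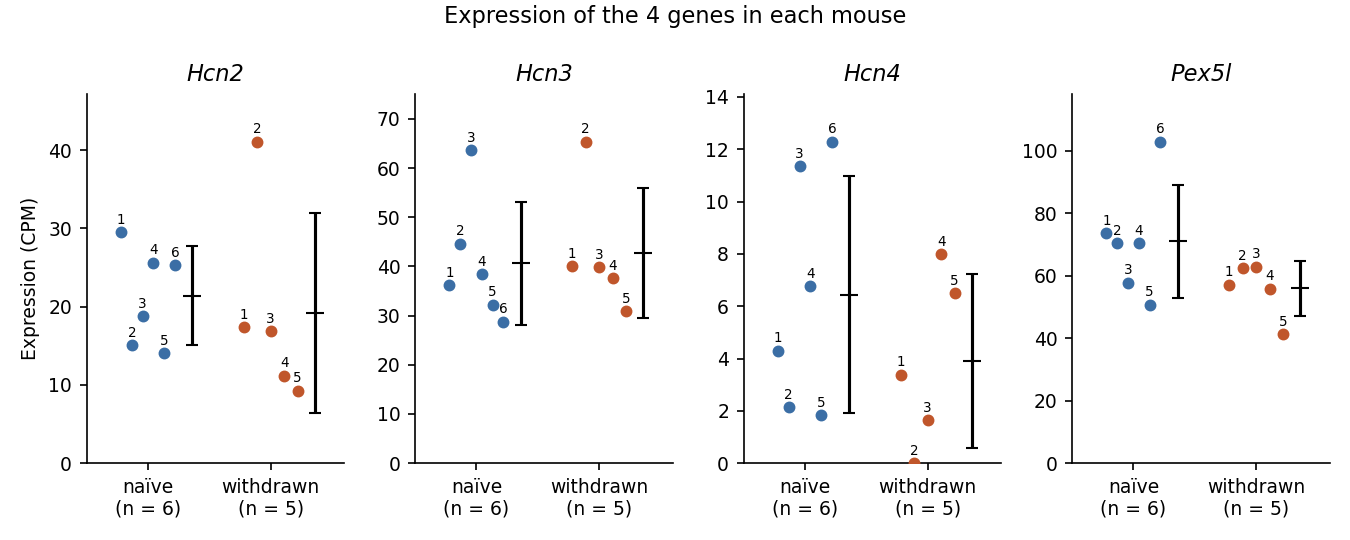
Expression of Hcn2, Hcn3, Hcn4 and Pex5l (CPM, vertical axis) in each naïve and withdrawn mouse, with 1 point per mouse and the mouse's number beside it, and a bar for the mean ± SD of 6 naïve and 5 withdrawn mice. The 2 groups overlap for every gene, withdrawn mouse 2 has the highest Hcn2 and Hcn3 and no Hcn4, and all 5 withdrawn mice are below the naïve median for Pex5l.

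Hcn2, the cAMP-sensitive subunit common in thalamus and widespread in the brain, had 29.5, 15.1, 18.7, 25.6, 14.0 and 25.3 CPM in naïve mice 1 to 6. In withdrawn mice 1 to 5 it had 17.4, 41.1, 16.9, 11.2 and 9.27 CPM. The highest value of all 11 mice was in withdrawn mouse 2 and the lowest 2 were in withdrawn mice 4 and 5, so the withdrawn group spanned the whole naïve range. The means were 21.4 ± 6.33 and 19.2 ± 12.7 CPM. The log2 fold change was -0.16 (standard error, SE, 0.40, 95% interval -1.02 to 0.70, adjusted p = 0.968 by edgeR's quasi-likelihood test), which leaves room for folds from 0.493 to 1.62. Withdrawn mouse 2 alone held 42.9% of the summed Hcn2 CPM of its group. Without that mouse the log2 fold change was -0.65 (adjusted p = 0.776 by the same test), and without the 3 mice whose labels conflict it was 0.38, the opposite direction.

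Hcn3, the subunit with little response to cAMP, was the most even of the 3 channel genes. Naïve mice 1 to 6 had 36.2, 44.6, 63.7, 38.4, 32.2 and 28.8 CPM. Withdrawn mice 1 to 5 had 40.05, 65.4, 39.8, 37.6 and 30.8 CPM. A single withdrawn mouse, number 2, lay outside the naïve range, slightly above naïve mouse 3. The means were 40.7 ± 12.5 and 42.7 ± 13.2 CPM, and the log2 fold change was 0.07 (SE 0.26, 95% interval -0.48 to 0.63, adjusted p = 0.979, edgeR's quasi-likelihood test). In folds the interval ran from 0.715 to 1.55. The sign turned in 3 of 9 other settings, with values from -0.11 to -0.014.

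Hcn4, the slowly activating subunit best known from the sinoatrial node, was scarce and uneven. Naïve mice 1 to 6 had 4.30, 2.14, 11.3, 6.76, 1.83 and 12.3 CPM, from 27 to 199 reads. Withdrawn mice 1 to 5 had 3.39, 0, 1.63, 7.99 and 6.51 CPM, from 0 to 92 reads. The naïve mice were spread widely, and the 2 withdrawn mice below the naïve range were numbers 2 and 3. In withdrawn mouse 2 the count of 0 allows up to 3 counts, or 0.336 CPM, which is below every other mouse. The means were 6.44 ± 4.53 and 3.90 ± 3.32 CPM, with a log2 fold change of -0.72 (SE 0.93, 95% interval -2.72 to 1.27, adjusted p = 0.930, edgeR's quasi-likelihood test). The interval in folds, 0.152 to 2.41, is the widest of the 4 genes.

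Pex5l, whose product TRIP8b binds the HCN C terminus and reduces the effect of cAMP, had the narrowest spread between mice. In naïve mice 1 to 6 its level was 73.6, 70.5, 57.7, 70.3, 50.7 and 102.8 CPM. In withdrawn mice 1 to 5 it was 57.05, 62.5, 62.8, 55.8 and 41.2 CPM. All 5 withdrawn mice were below the naïve median, but only withdrawn mouse 5 was below the lowest naïve mouse, so the groups overlapped. The means were 70.9 ± 17.9 and 55.9 ± 8.76 CPM. The log2 fold change was -0.34 (SE 0.20, 95% interval -0.78 to 0.09), with an unadjusted p of 0.113 and an adjusted p of 0.796 by edgeR's quasi-likelihood test. On log2 CPM the exact permutation test, two-sided, gave p = 0.108, where the smallest p that 5 mice against 6 allow by this test is 0.004329. In folds the interval ran from 0.582 to 1.07.

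Markers of layer 5 extratelencephalic neurons, a pyramidal cell type known for a large Ih, were also on the low side in withdrawn mice. Their summed level was between 315 and 529 CPM in naïve mice and between 223 and 366 CPM in withdrawn mice (p = 0.0563, exact permutation test, two-sided). The sum weighs Crym most, with 150 to 378 CPM over all mice, against 13.9 to 116 CPM for Bcl11b, the marker with the next highest peak. All 5 markers had a negative log2 fold change and 0 were called. Of the 6 markers of glutamatergic neurons as a class, 1 had a positive and 5 a negative log2 fold change. Their sum gave p = 0.455 in the same permutation test. The p values of the marker sums were not adjusted for the number of sums compared. The part of layer 5 extratelencephalic neurons in the Pex5l values was not tested. In withdrawn mouse 2, with the highest Hcn2 and Hcn3, the summed GABAergic markers were 469 CPM, the highest of all mice, and 39.6% of its reads lay outside exons. Withdrawn mouse 1 was nearly as high in GABAergic markers, at 419 CPM, with Hcn2 and Hcn3 inside the naïve range. Withdrawn mouse 4 had a larger share of reads outside exons, 48.1%, with Hcn2 at 11.2 CPM and Hcn3 at 37.6 CPM. The part of either trait in the Hcn2 and Hcn3 values was not tested.

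**Figure D2:**
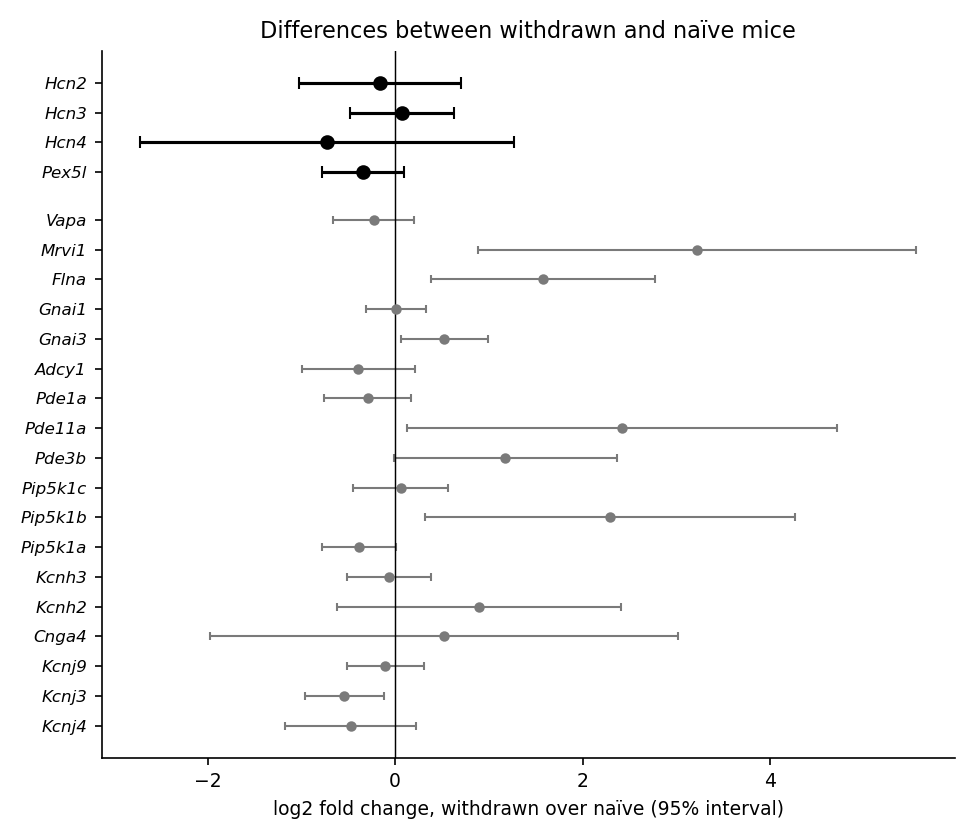
Log2 fold change of withdrawn over naïve mice (horizontal axis) with its 95% interval from edgeR's quasi-likelihood fit for the 4 members (black) and the genes named from the lists (grey). The interval of each member crosses 0, from -0.78 to 0.09 for Pex5l and from -2.72 to 1.27 for Hcn4.

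The spread itself differed among the members, and for Hcn4 it includes the mouse with 0 reads. The within-group SD of log2 CPM was 0.31 for Pex5l, 0.40 for Hcn3, 0.64 for Hcn2 and 1.78 for Hcn4, or percentiles 11.1, 24.4, 47.3 and 82.6 of the tested genes. The biological coefficient of variation estimated by edgeR was 26.3% for Pex5l, 32.8% for Hcn3, 48.7% for Hcn2 and 99.9% for Hcn4. The standard error of the log2 fold change followed the same order, from 0.20 for Pex5l to 0.93 for Hcn4.

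Because HCN channels assemble from mixed subunits, the share of each gene in the summed level of the 3 subunit genes was computed per mouse, with counts divided by exon length. Between 462 and 1249 reads stood behind these shares in each mouse. Hcn3 made up 55.8% ± 11.3 (SD, n = 6) in naïve and 62.1% ± 4.23 (SD, n = 5) in withdrawn mice, ranging from 41.1% to 67.9% and from 55.0% to 65.3%. Hcn2 made up 38.5% ± 9.75 (SD, n = 6) and 33.1% ± 8.17 (SD, n = 5). Hcn4 made up 5.72% ± 3.77 (SD, n = 6) and 4.81% ± 4.35 (SD, n = 5).

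The ranges of the 2 groups overlapped for each subunit. Hcn3 was the largest share in all 5 withdrawn mice and in 4 of 6 naïve mice, while in naïve mice 1 and 6 Hcn2 was larger, at 49.5% and 47.0%. These 2 exceptions depended on the length used. With the exonic bases shared with Pklr left out of its length, Hcn3 was above Hcn2 in 11 of 11 mice. That setting kept all Hcn3 counts, so it could only raise Hcn3, and whether reads over those bases were counted is not known. Raw counts also gave 11 of 11, but they are not scaled to length, and Hcn3 has more exonic bases than Hcn2. The summed level of the 3 subunit genes was 17.5 ± 3.51 CPM per kilobase (SD, n = 6) in naïve and 16.9 ± 6.73 (SD, n = 5) in withdrawn mice. The level of Pex5l relative to this sum was 0.469 ± 0.131 (SD, n = 6) and 0.399 ± 0.0887 (SD, n = 5), and ranged from 0.283 to 0.689 in naïve and from 0.247 to 0.469 in withdrawn mice.

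**Figure D3:**
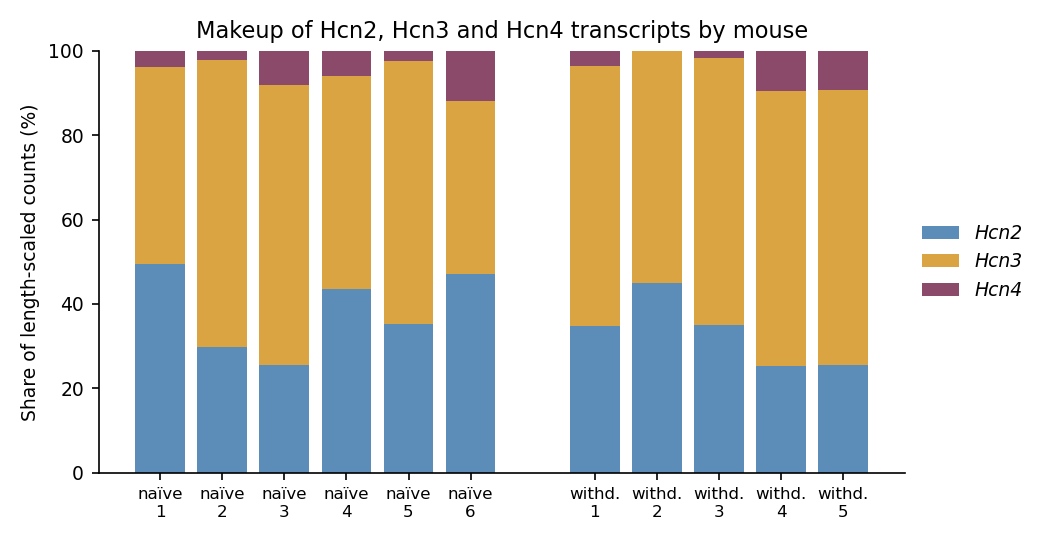
Share (percent, vertical axis) of Hcn2, Hcn3 and Hcn4 in their summed length-scaled level in each of the 6 naïve and 5 withdrawn mice. With the whole exon length Hcn3 is the largest share in 9 of 11 mice. It is above Hcn2 in 11 of 11 if the bases shared with Pklr are left out of its length but its counts are kept. Hcn4 is at most 11.9%, and the shares of the 2 groups overlap.

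Across the 11 mice, Hcn2 and Pex5l varied together more than the other pairs of members, with a Pearson r of 0.64 for log2 CPM. Hcn2 and Hcn3 had an r of 0.41, Hcn3 and Pex5l -0.078, and Hcn4 and Pex5l 0.12. Hcn4 had an r of -0.43 with Hcn2 and -0.48 with Hcn3, but both rested on withdrawn mouse 2, whose log2 CPM of Hcn4 (-2.80, from 0 reads) was set by the prior count. Without that mouse, a setting added after seeing the data, the values were 0.17 and 0.059. In the same setting the r of Hcn2 with Hcn3 was 0.081, and that of Hcn2 with Pex5l 0.79. Over all 11 mice, Spearman's rho of Hcn4 was -0.045 with Hcn2 and -0.40 with Hcn3. These are descriptions over 11 libraries that share depth and cell composition, and both groups are pooled in them. Among 10604 genes with a symbol and at least 10 counts in every mouse, Pex5l was ranked 257th by its r with Hcn2.

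The genes most like each member by the same measure were Ldb1 (r = 0.90), Aar2 (0.89) and Mrpl43 (0.86) for Hcn2, and Nsd1 (0.88), Tbc1d13 (0.87) and Eno4 (0.86) for Hcn3. For Hcn4 they were Trim66 (0.95), Ehbp1 (0.93) and Gm19196 (0.92). For Pex5l they were Fbxl14 (0.83), Zfp91 (0.81) and Stk32c (0.80). These are the extremes of many ranked genes, and without withdrawn mouse 2 their r lay between 0.77 and 0.90.

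Genes listed for an action on HCN channels, and other channel genes set beside them, were followed in 6 lists with 89 genes. Of these, 80 were tested and 0 were called. At an unadjusted p under 0.05 there were 5 higher and 1 lower, or 7.5% of those tested, close to the 7.22% of all genes. No gene of any list had groups that did not overlap.

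Of 16 genes listed for proteins that traffic or regulate HCN channels, 13 were tested. Of these, 4 had a positive and 9 a negative log2 fold change, and the median was -0.20. The 9 include Pex5 (-0.34), a namesake of Pex5l that was not shown here to act on HCN channels. Vapa, an endoplasmic reticulum membrane protein, had the highest level per kilobase, with 443 ± 136 CPM in naïve and 379 ± 54.8 CPM in withdrawn mice. Mrvi1, which encodes the inositol trisphosphate receptor-associated protein IRAG, had 1.47 ± 1.27 and 13.8 ± 12.2 CPM. Its log2 fold change, 3.22 with a SE of 1.09, had an adjusted p of 0.429 in edgeR's quasi-likelihood test. In withdrawn mice it ranged from 0.224 to 31.3 CPM, and 4 of the 5 were above the highest naïve mouse. Flna, which encodes the actin crosslinker filamin A, had 45.4 ± 25.4 and 136 ± 102.0 CPM, and its log2 fold change was 1.58 (SE 0.56, adjusted p = 0.468, same test). Summed fibroblast markers, with a median of 17.3 CPM in naïve and 619.5 CPM in withdrawn mice, were higher beside these 2 genes. All 5 tested fibroblast markers had a positive log2 fold change and 0 were called, and the part of such cells in the values of Mrvi1 and Flna was not tested.

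Genes of cAMP synthesis, adenylyl cyclases and the G protein alpha subunits that act on them, were split evenly, 8 with a positive and 8 with a negative log2 fold change of 16 tested (median -0.016). Gnai1, an inhibitory alpha subunit, had the highest level per kilobase, with 325 ± 46.5 and 327 ± 48.3 CPM. Gnai3, another inhibitory alpha subunit, had 41.1 ± 11.0 and 59.3 ± 9.58 CPM. Its log2 fold change was 0.53 (SE 0.22), with 4 of 5 withdrawn mice above the naïve range and an adjusted p of 0.614 in edgeR's quasi-likelihood test. Adcy1, a calcium-stimulated adenylyl cyclase, had 257 ± 94.2 and 196 ± 46.7 CPM, and the adjusted p was 0.850 by edgeR.

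Among 16 phosphodiesterase genes for cAMP breakdown, 7 had a positive and 9 a negative log2 fold change (median -0.025). Pde1a, a calcium and calmodulin-dependent enzyme, had the highest level per kilobase, 301 ± 83.8 CPM in naïve and 246 ± 49.0 CPM in withdrawn mice. The smallest p values belonged to 2 scarce genes. Pde11a had 1.01 ± 0.910 and 5.43 ± 6.57 CPM, where 1 withdrawn mouse held 62.5% of its group's sum (log2 fold change 2.43, SE 1.07, adjusted p = 0.653, edgeR). Pde3b had 3.27 ± 1.97 and 7.41 ± 2.28 CPM, with a log2 fold change of 1.17 (SE 0.55, adjusted p = 0.697, edgeR).

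The 8 genes of PIP2 synthesis were split 4 and 4 (median log2 fold change -0.029). Pip5k1c, which encodes the main synaptic phosphatidylinositol 4-phosphate 5-kinase, had 556 ± 140 CPM in naïve and 581 ± 192 CPM in withdrawn mice. Its paralog Pip5k1b had 3.48 ± 2.39 and 17.1 ± 25.0 CPM, and a single withdrawn mouse at 61.6 CPM held 71.9% of the group's sum (log2 fold change 2.30, SE 0.92, adjusted p = 0.575, edgeR). Pip5k1a had 62.2 ± 10.5 and 47.5 ± 7.36 CPM, with 3 withdrawn mice below the naïve range and an adjusted p of 0.698 by edgeR.

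Of 14 other channel genes that encode a cyclic nucleotide-binding domain or its homolog, 8 were tested and 6 were below the filter on low counts, 5 of them cyclic nucleotide-gated channel genes. The 8 were split 4 and 4 (median -0.020). Kcnh3, a potassium channel gene of the forebrain, had the highest level per kilobase, with 115 ± 26.9 and 110 ± 26.6 CPM. Kcnh2, which encodes the ERG1 potassium channel, had 9.31 ± 5.51 and 17.3 ± 13.5 CPM, and the adjusted p was 0.865 by edgeR. Cnga4, an olfactory channel subunit gene, had 1.69 ± 2.22 and 2.45 ± 1.93 CPM.

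Other conductances that act below spike threshold beside Ih, among them leak, M-type, inward rectifier and T-type channels, were covered by 19 genes, 6 with a positive and 13 with a negative log2 fold change (median -0.10). The highest level per kilobase was that of Kcnj9, a subunit gene of G protein-gated inward rectifier (GIRK) channels, at 200 ± 51.5 CPM in naïve and 186 ± 26.9 CPM in withdrawn mice. Kcnj3, which encodes the GIRK1 subunit, had 70.2 ± 14.4 and 48.3 ± 8.12 CPM. In 4 of 5 withdrawn mice it was below the lowest naïve mouse, and its log2 fold change was -0.54 (SE 0.20, unadjusted p = 0.0164, adjusted p = 0.491, edgeR's quasi-likelihood test). Kcnj4, a strong inward rectifier gene, had 41.4 ± 15.3 and 29.8 ± 10.4 CPM, and the adjusted p was 0.833 by edgeR.

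**Figure D4:**
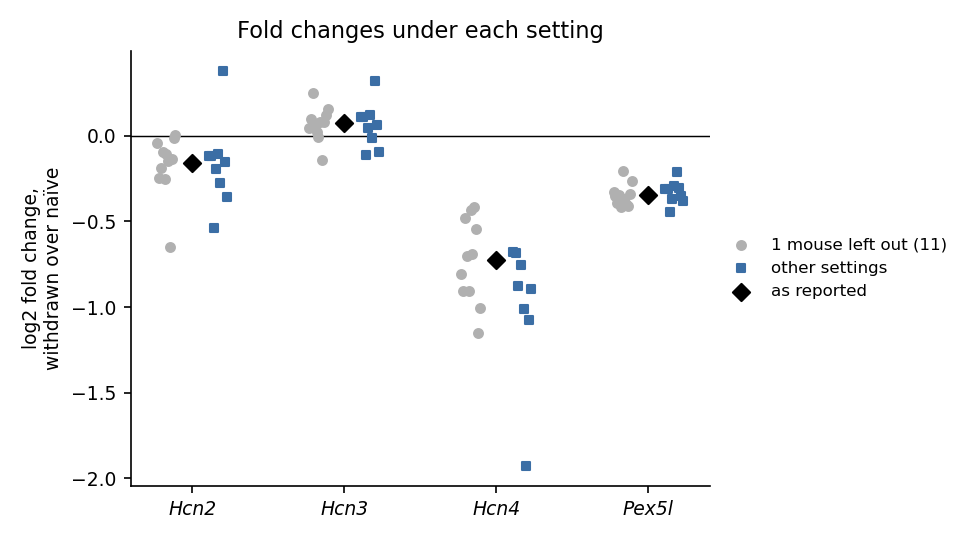
Log2 fold change (vertical axis) of each member (horizontal axis) as reported (black diamond) and under each alternative fit, including fits without 1 mouse. Pex5l stays between -0.45 and -0.21 and Hcn4 below 0 in every fit, whereas Hcn2 and Hcn3 lie on both sides of 0.

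The direction of the difference was the same in every alternative fit for Pex5l, with log2 fold changes from -0.45 to -0.21 over 9 other settings and from -0.42 to -0.21 when single mice were left out. The adjusted p for Pex5l was at least 0.477 in all of them. Hcn4 stayed below 0 as well, from -1.93 to -0.68 over the 8 settings that gave a value and from -1.15 to -0.42 with a mouse left out, and its lowest value came without the 3 mice with conflicting labels. Hcn2 ranged from -0.54 to 0.38 and Hcn3 from -0.11 to 0.32.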

How the data were processed

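RNA was sequenced from sorted mPFC GFP+ cells of 11 single mice. The authors prepared SMARTseq HT libraries from 160 pg of RNA, sequenced 75 nt single reads, used cutadapt for trimming, STAR for alignment to GRCm38 and HTSeq for counting. The deposited values are raw counts per Ensembl gene, with no normalization or pooling. Reads on lines that name no gene, such as the 5.77% to 48.1% of tallied reads outside exons, were left out. Symbols (53274 of 53465 identifiers), exon lengths and coding sequences were taken from GENCODE M21 on the same assembly.

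Mice were grouped by title and treatment. By the authors' account each sample is 1 mouse. The closest of the 55 library pairs differed well beyond the sampling noise of reads (chi-square per degree of freedom 25.6). This measure leaves out amplification noise, so it cannot show that the animals are separate. Genes were filtered with filterByExpr (minimum count 10, minimum total 15), and 17093 were tested with edgeR 4.0.16 (TMM, quasi-likelihood test, Benjamini-Hochberg) in R 4.3.3. Calls needed an adjusted p no higher than 0.05 with a log2 fold change past 0.6 up or down. CPM used the effective library sizes of that fit and log2 CPM a prior count of 2. The standard error is the size of the log2 fold change over the square root of F. Exact permutation tests were two-sided over 462 splits. The scripts were tested on simulated data. Alternatives were DESeq2 1.42.0 (Wald test, size factors), limma 3.58.1 voom with quality weights, other filters, covariates, a replicate block and each mouse left out.

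The members and lists were chosen with earlier results of these data known. In each list the gene with the highest level per kilobase and the 2 with the smallest p were named, as were the 3 genes most like each member. Exon lengths without shared bases, correlations without withdrawn mouse 2, and the count of called list genes in each alternative, were added after seeing the data.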

Additional observations from a re-analysis of the deposited data

Results flagged for a closer look

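In 3 of 40 sets of values of 1 group, the highest or lowest mouse stood further from the others than Dixon's 95% limit, where chance flags about 1 in 20. Withdrawn mouse 5 had a log2 CPM of Pex5l of 5.37, below the 5.81 to 5.98 of the other withdrawn mice. In withdrawn mouse 2 the level of Pex5l relative to the summed HCN subunit genes was 0.247, below the 0.409 to 0.469 of the others, beside the highest Hcn2 and Hcn3 levels of all mice. Naïve mouse 5 had a summed level of oligodendrocyte precursor markers of 0 on the log2(CPM + 1) scale, against 2.91 to 3.99 in the other naïve mice, beside the fewest genes detected (15585).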

How the results depend on the processing

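No member was called under any alternative fit. The direction of Hcn2 turned without the 3 mice with conflicting labels (log2 fold change 0.38). That of Hcn3 turned with limma voom (-0.11), with the share of reads outside exons as a covariate (-0.093) and with a replicate block (-0.014). The cause was not tested. With each mouse left out in turn, log2 fold changes ran from -0.65 to 0.0033 for Hcn2, from -0.14 to 0.25 for Hcn3, from -1.15 to -0.42 for Hcn4 and from -0.42 to -0.21 for Pex5l. For Pex5l the unadjusted p was 0.0291 with voom and 0.0493 without naïve mouse 5. Hcn4 was below the filter of at least 10 counts in every mouse and has no value there.

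The count of genes called over the whole table, 1 in the reported fit, was 362 with DESeq2's Wald test (342 higher, 20 lower), 137 without the filter, 30 with at least 10 counts in every mouse, 26 with genes detected as a covariate, and 0 with the covariate for reads outside exons, without the 3 mice, and with the replicate block. Leaving out 1 mouse gave 0 to 193, the highest without withdrawn mouse 2. In the 6 lists 0 genes were called in every fit. Replicate numbers do not pair the mice, which are different animals, and same-numbered mice correlated between -0.20 and 0.18.

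With the bases shared with Pklr left out of its length, the mean Hcn3 share was 60.2% in naïve and 66.4% in withdrawn mice. With each mouse left out, mean shares in naïve and withdrawn mice ran from 36.2% to 41.1% and from 30.1% to 35.0% for Hcn2, from 53.4% to 58.8% and from 61.3% to 63.9% for Hcn3, and from 4.49% to 6.43% and from 3.66% to 6.02% for Hcn4. Depth limits Hcn4 most, with at most 199 reads in a mouse.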
